A study of Sus scrofa with 22 samples.

Results

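The genes described here are 33 markers and working genes of cerebellar astrocytes and Bergmann glia, together with transporters and enzymes that handle glutamate, glutamine, ammonia and organic osmolytes. They were chosen by symbol. Of the 33 symbols, 28 had a pig Ensembl identifier among the 31907 in the count tables, and all 28 passed the filter on low counts and were among the 14994 genes tested. S100B, GJB6, HOPX, GLUL and SLC5A3 were not matched to an identifier and were not analysed here.

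RNA came from the cerebellum of 22 neonatal pigs (Sus scrofa). At day 8 of life, 11 animals (7 female, 4 male) underwent ligation of the bile duct (BDL), so that bile could not leave the liver, and 11 animals (5 female, 6 male) had sham surgery (SHAM); both groups were followed for 3 weeks. The labels give a body weight for each animal, without a unit or an age at weighing, which ran from 1620 to 2540 in BDL and from 1660 to 2560 in SHAM. The sources used here name no litter, strain, collection date or blood ammonia, so each BDL animal stands for ligation as such and not for a known degree of liver failure.

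Astrocytes take up the glutamate that neurons release, turn it into glutamine with ammonia as the second substrate, and hand the glutamine back to neurons. In the cerebellum this is done largely by Bergmann glia, whose fibres wrap the Purkinje cell dendrites. Because the brain has no complete urea cycle, glutamine synthesis in astrocytes is its main route for binding ammonia, and in liver failure astrocytes can swell as glutamine accumulates and other osmolytes are released.

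The count tables held between 14811464 and 20046909 counts in genes per library. The tissue label was checked against markers: granule neuron genes such as GABRA6 ran from 319 to 423 CPM (counts scaled to library size) and the Purkinje cell gene PCP2 from 279 to 453 CPM, while the forebrain neuron gene NEUROD6 stayed between 7.16 and 21.1 CPM, and the liver gene ALB between 2.85 and 5.34 CPM. Libraries BDL replicates 2, 4 and 8, all from females, stood apart from the other 19 on the first principal component of all genes, which held 14.8% of the variance. They also had lower levels of long genes. The median log2 deviation from the mean of the 22 animals was smaller for the 2893 genes of longest RefSeq span (81.2 kb or more) than for the 2893 of shortest (12.5 kb or less) in all 3. Longest minus shortest was -0.26, -0.17 and -0.18 in these, and ran from -0.09 to 0.27 in the other 19. The labels hold no measure of RNA quality, and the part of RNA quality in the low values of these libraries was not tested. The treatment results that rest on the 3 libraries are given with and without them.

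No glial or ammonia-handling gene passed the test of BDL against SHAM, edgeR's quasi-likelihood test with sex as a covariate. Of the 28 genes, 0 passed an adjusted p of 0.05, against 0 of all 14994 genes (0%), and the smallest adjusted p among the 28 was 0.881. At an unadjusted p under 0.05 there was 1 gene, TNC, against 744 of all genes (4.96%). DESeq2 and limma's voom also called 0 of the 28, with 1 at an unadjusted p under 0.05 in each. No gene separated the groups without overlap, among the 28 or among all genes (0%).

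The differences leaned to one side. Fitted levels were lower in BDL for 22 of the 28 and higher for 6, so that 78.6% lay below 0, beside 49.7% of all genes, with a median log2 fold change of -0.06 beside 0.000614 over all genes. The lean was smaller without the 3 libraries that stood apart: 16 of the 28 were then lower, beside 53% of all genes, and 0 of the 28 passed an unadjusted p of 0.05, beside 3.45% of all genes. With the summed level of myelin markers in the model, 23 of the 28 were lower, beside 50.4% of all genes, and with that sum and without the 3 libraries 19 were, beside 50.8%. In bulk tissue, fewer cells of a type and less RNA per cell cannot be told apart.

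The data also bound the size of any difference. The 95% interval of the BDL to SHAM ratio lay wholly inside 1.25-fold in either direction for 16 of the 28 genes (57.1%), beside 63.6% of all genes. It lay inside 1.5-fold for 27 of the 28 (96.4%), beside 87.1% of all genes. The exception was SLC1A2, whose interval reached from a log2 fold change of -0.80 to 0.14.

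**Figure D1:**
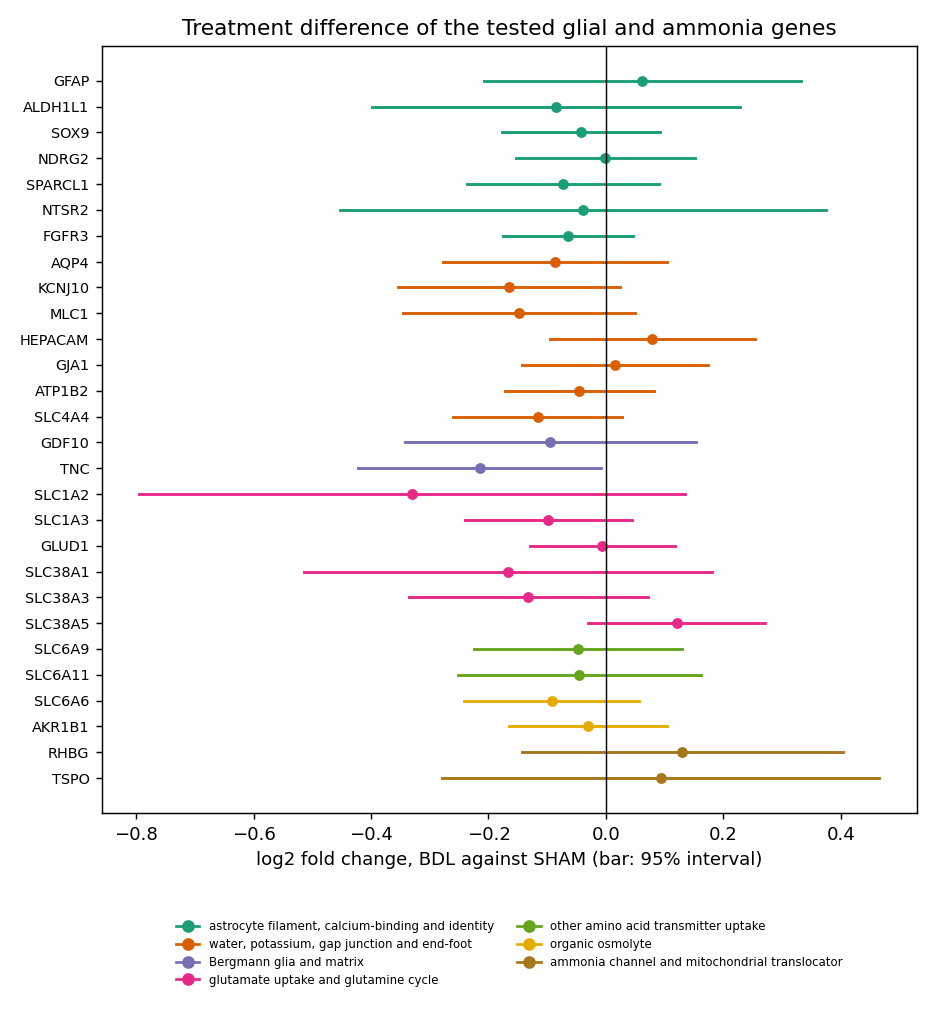
Log2 fold change of BDL against SHAM (x axis) for each of the 28 genes (y axis), coloured by role; points are edgeR estimates from 22 animals and bars are 95% intervals. TNC is the 1 gene whose bar does not cross 0, SLC1A2 has the widest bar, and 22 of the 28 points lie left of 0.

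Among the 7 genes that mark astrocyte identity and structure, 1 was fitted higher and 6 lower in BDL, and 0 passed. GFAP, the intermediate filament protein that rises in reactive astrocytes, ran from 2229 through a median of 3907 to 4802 CPM in BDL and from 2583 through 3497 to 5289.7 CPM in SHAM. The groups overlapped over nearly the whole range, with 10 of 11 BDL animals inside the SHAM range. Its log2 fold change was 0.06 ± 0.13 (SE, adjusted p = 0.953), and the 95% interval of the ratio ran from 0.866 to 1.26.

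ALDH1L1, a folate enzyme used as a general astrocyte marker, had between 29 and 70 reads per library and a log2 fold change of -0.08 ± 0.15, and SOX9, a transcription factor of astrocyte identity, one of -0.04 ± 0.07. NDRG2, a cytoplasmic protein abundant in astrocytes, differed by 0.00 ± 0.07. SPARCL1, a secreted protein that promotes synapse formation, differed by -0.07 ± 0.08, and FGFR3, a growth factor receptor of astrocytes, by -0.06 ± 0.05. NTSR2, the neurotensin receptor enriched in astrocytes, varied most in this set, from 3.90 to 13.4 CPM over the 22 animals, and differed by -0.04 ± 0.20. The groups overlapped in all 6, and the adjusted p values lay between 0.881 and 0.997.

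The 7 genes of water, potassium and ion handling at the astrocyte end-foot were fitted lower in BDL in 5 cases and higher in 2, and 0 passed. AQP4, the water channel of astrocyte end-feet, ran from 531 through 871 to 1045 CPM in BDL and from 752 through 915 to 1163 CPM in SHAM. Its lowest animals, at 531 and 670 CPM, were BDL replicates 2 and 4, below every SHAM animal, and the other 9 BDL animals lay inside the SHAM range. The log2 fold change was -0.09 ± 0.09 (adjusted p = 0.911), and 0.01 without the 3 libraries.

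KCNJ10, the inward-rectifier channel with which glia clear extracellular potassium, ran from 90.4 through 141 to 173 CPM in BDL and from 124 through 148 to 187 CPM in SHAM. Of the 11 BDL animals, 9 lay below the SHAM mean and 3 below every SHAM animal. Its log2 fold change was -0.16 ± 0.09 (unadjusted p = 0.0849, adjusted p = 0.881), a level 10.8% lower with a 95% interval from 21.7% lower to 1.71% higher. Without the 3 libraries it was -0.08 (unadjusted p = 0.335).

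MLC1, an end-foot membrane protein whose loss causes a leukodystrophy with brain swelling, ran from 93.5 through 158 to 180.1 CPM in BDL and from 148 through 169 to 189 CPM in SHAM. The 3 BDL animals below the SHAM range were replicates 2, 4 and 8, at 94.0, 93.5 and 123 CPM, and the other 8 overlapped SHAM throughout. Its log2 fold change was -0.15 ± 0.10 (adjusted p = 0.881), and -0.01 without those 3. The spread was wider in BDL, with an SD of log2 CPM of 0.35 beside 0.12 in SHAM (n = 11 each).

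SLC4A4, the sodium bicarbonate cotransporter of astrocytes, ran from 297 through 387 to 470.1 CPM in BDL and from 359 through 429 to 471 CPM in SHAM. Replicates 2 and 4 were the BDL animals below the SHAM range, at 306 and 297 CPM. BDL minus SHAM was -0.12 ± 0.07 on the log2 scale (unadjusted p = 0.11, adjusted p = 0.881), and -0.04 without the 3 libraries.

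HEPACAM, the adhesion protein that anchors MLC1 at cell contacts, was fitted slightly higher in BDL, at 0.08 ± 0.08, with medians of 126 CPM in BDL and 120.03 CPM in SHAM. GJA1, the main astrocyte gap junction protein, differed by 0.02 ± 0.08, and ATP1B2, the glial sodium pump subunit, by -0.05 ± 0.06. For each of these 3 genes at least 7 of 11 BDL animals lay inside the SHAM range.

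TNC, an extracellular matrix glycoprotein of Bergmann glia and immature astrocytes, had the smallest p of the 28. On the pig build Sscrofa11.1 the RefSeq gene table places TNC at chr1:255533235-255630381, KCNJ10 at chr4:90421956-90457406, MLC1 at chr5:571921-593531, SLC1A2 at chr2:25603892-25771840 and SLC38A5 at chrX:42590608-42601537; counts are over whole genes. It ran from 69.0 through 97.8 to 110.1 CPM in BDL and from 73.1 through 104 to 149 CPM in SHAM. BDL lacked the high values: its highest animal, at 110.1 CPM, lay below 4 SHAM animals, while at the low end 1 BDL animal lay under the SHAM range. The log2 fold change was -0.22 ± 0.10 (unadjusted p = 0.0428, adjusted p = 0.881), a level 13.9% lower with an interval from 25.4% to 0.522% lower, and -0.12 (unadjusted p = 0.196) without the 3 libraries. GDF10, a growth factor of the TGF-beta family that marks Bergmann glia, ran from 35.1 to 68.5 CPM in BDL and from 35.7 to 69.1 CPM in SHAM, with a log2 fold change of -0.09 ± 0.12.

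In the glutamate and glutamine cycle, 5 of 6 genes were fitted lower, 1 higher, and 0 passed. SLC1A2, the transporter that carries most glutamate uptake in the forebrain, varied more between animals than any other of the 28. It ran from 24.5 through 65.5 to 105 CPM in BDL and from 55.2 through 82.0 to 131 CPM in SHAM. The 3 BDL animals that lay below the SHAM range were again replicates 2, 4 and 8, at 24.5, 32.4 and 34.2 CPM, and the other 8 BDL animals lay inside it. Its log2 fold change was -0.33 ± 0.22 (adjusted p = 0.881), and -0.09 without those 3.

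SLC1A3, the glutamate transporter that dominates in Bergmann glia, ran from 729 through 917 to 1210.4 CPM in BDL and from 852 through 1009 to 1116 CPM in SHAM. Of the 11 BDL animals 9 lay below the SHAM mean, 3 below the SHAM range and 1 above it. The log2 fold change was -0.10 ± 0.07 (adjusted p = 0.881), and -0.03 without the 3 libraries. GLUD1, glutamate dehydrogenase, which links glutamate to ammonia in mitochondria, differed by -0.01 ± 0.06, with an interval from 8.61% lower to 8.44% higher.

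Among the glutamine transporters, SLC38A1, which takes glutamine up mainly into neurons, ran from 33.2 through 70.1 to 93.2 CPM in BDL and from 50.4 through 66.3 to 103 CPM in SHAM, with replicates 2, 4 and 8 at 33.2, 41.3 and 36.6 CPM below every other animal. SLC38A3, which releases glutamine from astrocytes, ran from 18.5 through 23.6 to 28.9 CPM in BDL and from 18.9 through 27.5 to 36.0 CPM in SHAM. In SLC38A3 the 3 libraries, at 20.3, 28.1 and 28.9 CPM, lay among the rest. The log2 fold changes were -0.17 ± 0.17 for SLC38A1 and -0.13 ± 0.10 for SLC38A3. Without the 3 libraries they were 0.03 and -0.16.

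SLC38A5, a second astroglial glutamine transporter, was fitted higher in BDL. It ran from 73.7 through 89.5 to 131 CPM in BDL and from 78.8 through 84.2 to 97.6 CPM in SHAM. Replicates 2, 4 and 8, at 131, 114 and 102 CPM, were the 3 highest of all 22 animals, so this gene was high where SLC1A2, SLC38A1 and MLC1 were low. The log2 fold change was 0.12 ± 0.07 (unadjusted p = 0.115, adjusted p = 0.881), and 0.01 without the 3 libraries.

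**Figure D2:**
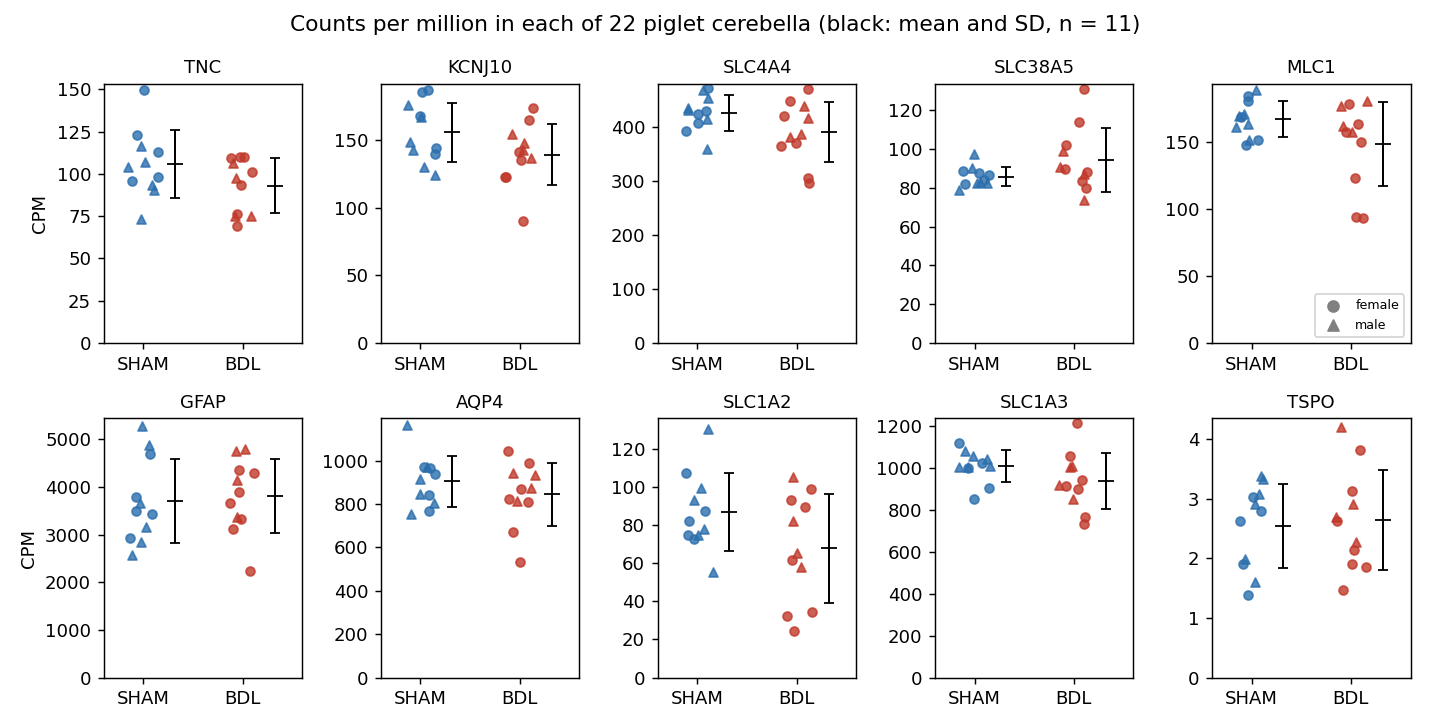
CPM (y axis, from 0) of 10 genes in each animal of SHAM (blue) and BDL (red), with circles for females and triangles for males; black marks are the mean and SD of 11 animals. The groups overlap in all 10 panels, and the lowest red circles in MLC1 and SLC1A2 and the highest in SLC38A5 are BDL replicates 2, 4 and 8.

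The remaining carriers had small fitted differences, none of which passed. SLC6A9, a glycine transporter of astrocytes, and SLC6A11, an astrocyte GABA transporter, were both fitted lower, at -0.05 ± 0.09 and -0.05 ± 0.10, with every BDL animal inside the SHAM range. SLC6A6, the taurine transporter used in volume control, was at -0.09 ± 0.07, and AKR1B1, the aldose reductase that makes sorbitol, at -0.03 ± 0.07. RHBG, an ammonium channel, had 27 to 55 reads per library and TSPO, a mitochondrial outer membrane protein used to image activated glia, had 24 to 76, so counting noise alone is large for both. TSPO ran from 1.46 through 2.62 to 4.21 CPM in BDL and from 1.39 through 2.79 to 3.38 CPM in SHAM, with a log2 fold change of 0.09 ± 0.18 (adjusted p = 0.947), which turned to -0.08 without the 3 libraries. For RHBG it was 0.13 ± 0.13, with medians of 2.39 CPM in BDL and 2.05 CPM in SHAM.

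Low values in the 3 libraries did not extend to every gene. Their animals gave the lowest of all 22 values for 18 of the 28 genes and the highest for 1. Replicate 8 was the lowest only for ALDH1L1, and the others were lowest in replicate 2 or 4. All 3 lay below every other animal in SLC1A2, SLC38A1 and MLC1, and above every other animal in SLC38A5. For the other 9, ATP1B2, FGFR3, NDRG2, RHBG, SLC38A3, SLC6A6, SLC6A9, SLC6A11 and TSPO, their values lay within those of the other 19. The same counts over all genes were not computed, so they show nothing particular to the 28. Some marker sums for other cell types also differed in the 3 libraries. The summed Purkinje cell markers stood at 2714, 2763 and 3116 CPM in replicates 2, 4 and 8, the first pair below every SHAM animal (2820 to 3832 CPM). Single markers of this sum differed. Raw counts of ITPR1, not scaled to library size, were 11753, 15710 and 14749, beside 15694 to 24717 in SHAM. Those of PCP2 were 6360, 7765 and 7799, beside 4515 to 8349 in SHAM. The summed liver markers at 163, 187 and 177 CPM were above every SHAM animal (106 to 158 CPM). This liver sum was mostly APOA1, at 90.5 to 183 CPM over the 22 animals, while ALB ran from 2.85 to 5.34 CPM. The myelin sum was 5269 CPM in replicate 2, the lowest of all animals, but 14485 and 19541 CPM in replicates 4 and 8, and the summed choroid plexus markers stood at 1591 CPM in replicate 4 and at 221 and 163 CPM in the other pair. The part of cell types or of single markers in the low SLC1A2 values was not tested.

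Variation between animals was larger in BDL than in SHAM for 18 of the 28 genes (64.3%), by the SD of log2 CPM, beside 54.8% of all genes. With the 3 libraries left out, it was larger in BDL for 10 of the 28 (35.7%), beside 40.7% of all genes. SLC1A2 had a biological coefficient of variation of 0.357 in the edgeR fit, higher than 94.8% of the genes tested, and FGFR3 had the lowest of the 28, at 0.0927.

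Several of the genes followed the level of myelin transcripts in the sample. The dissected cerebellum can hold more or less white matter, and the summed level of 12 oligodendrocyte and myelin markers ran from 5269 through 17545 to 29621 CPM in BDL and from 7597 through 15262 to 26076 CPM in SHAM. All 12 markers were fitted higher in BDL, beside 7536 of all 14994 genes, with a median log2 fold change of 0.18 and 0 passing. Without the 3 libraries 11 were higher and 1 lower, beside 53% of all genes lower. The median was then 0.32, with 0 passing. Of the 28 genes, 11 were related to this sum over the 22 animals, all positively (Pearson r of log2 CPM, permutation p adjusted over the 28). The share of all genes related to the sum was not computed, so this count shows nothing particular to the 28. GFAP had the highest Pearson r over the 22 animals, with r = 0.90 and rho = 0.86 (adjusted permutation p = 9.33e-05 and 7e-05), 0.83 without the 2 animals of most extreme myelin, 0.92 within BDL and 0.90 within SHAM. HEPACAM had the higher rho, and its r was 0.95 within BDL and 0.83 within SHAM; without the same 2 animals HEPACAM was at 0.84 and SLC6A9 at 0.85.

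HEPACAM (r = 0.88, rho = 0.90), SLC6A9 (r = 0.79, rho = 0.84), NTSR2 (r = 0.80, rho = 0.78) and KCNJ10 (r = 0.77, rho = 0.67) also followed the myelin sum, with adjusted permutation p values of at most 0.000448 for r and 0.0051 for rho, and passed within BDL and within SHAM. GLUD1 (r = 0.72, rho = 0.61) and AQP4 (r = 0.69, rho = 0.64) passed over all animals and within BDL, with r = 0.69 and 0.59 within SHAM. SLC38A3 (r = 0.58, rho = 0.56) passed over all animals, and was at 0.60 within BDL and 0.70 within SHAM. For GJA1 (r = 0.59, rho = 0.49), SPARCL1 (r = 0.53, rho = 0.37) and SOX9 (r = 0.49, rho = 0.32) the relation rested on the 2 animals of most extreme myelin: without them r was 0.33, 0.30 and 0.13.

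For the Bergmann glia transporter SLC1A3 the relation did not pass (r = 0.17, rho = -0.10, adjusted permutation p = 0.522), nor did that of SLC4A4 (r = 0.16, rho = -0.08, adjusted permutation p = 0.522). Both changed sign when the 3 libraries were left out, to -0.19 and -0.31. Over those 19 animals 8 of the 28 genes were related to the myelin sum, and GFAP stood at 0.87.

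**Figure D3:**
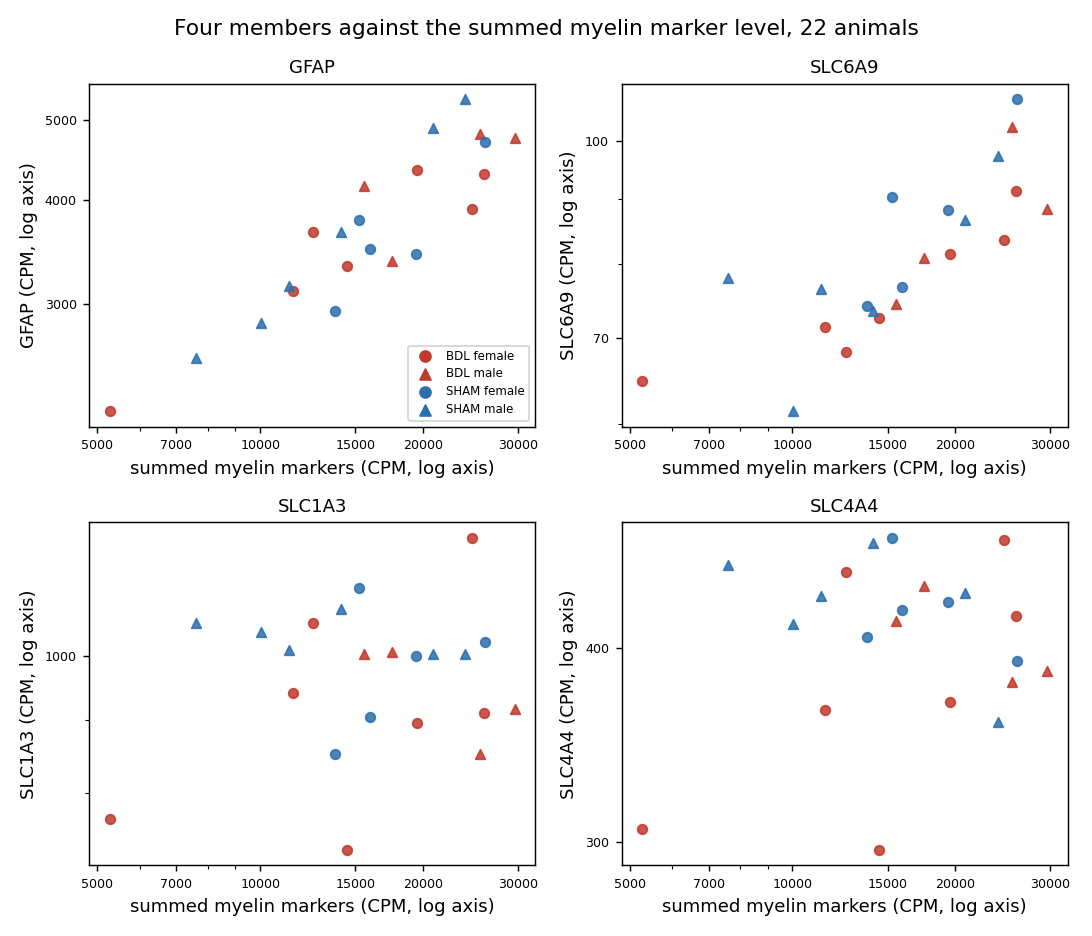
Level of GFAP, SLC6A9, SLC1A3 and SLC4A4 (y axes, CPM, log scale) against the summed level of 12 myelin markers (x axes, CPM, log scale) in 22 animals; colour gives the treatment and shape the sex. GFAP (r = 0.90) and SLC6A9 (r = 0.79) rise with the sum in both groups, while SLC1A3 (r = 0.17) and SLC4A4 (r = 0.16) show wide scatter.

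With the myelin sum added to the edgeR model, the treatment difference of KCNJ10 moved from -0.16 to -0.22 and that of GFAP from 0.06 to 0.00475. At an unadjusted p under 0.05 there were then 5 of the 28 genes, beside 5.98% of all genes, and 0 passed after adjustment (smallest adjusted p = 0.789). These were KCNJ10 (unadjusted p = 0.000341), TNC at -0.25 (0.0134), MLC1 at -0.18 (0.0342), SLC38A5 at 0.14 (0.0384) and SLC38A3 at -0.17 (0.0465). With the myelin sum in the model and the 3 libraries left out, KCNJ10 was at -0.16 (unadjusted p = 0.00762) and SLC38A3 at -0.26 (unadjusted p = 0.00413); these were 2 of the 28, beside 2.74% of all genes, with a smallest adjusted p of 0.99995. KCNJ10 was thus fitted lower in BDL in each of these 4 models, and passed the adjusted threshold in none.

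Of 18 pairs of genes chosen by their known roles, 10 had both members measured, and 6 of these were related over the 22 animals (permutation p of r adjusted over the 10 pairs). The share among other pairs of genes was not computed. AQP4 followed KCNJ10 (r = 0.78, rho = 0.66, adjusted permutation p = 0.00055) and MLC1 (r = 0.76, rho = 0.58, adjusted permutation p = 0.00055). Without the 3 libraries these relations fell to 0.53 and 0.34 and passed no longer. GFAP and AQP4 (r = 0.72, rho = 0.68, adjusted permutation p = 0.00055) and MLC1 and HEPACAM (r = 0.53, rho = 0.57, adjusted permutation p = 0.0175) stood at 0.68 and 0.60 over the 19 animals and passed there too. Without the 2 animals farthest from the median of the first gene, these 4 relations were at 0.61, 0.66, 0.63 and 0.38 in the order given.

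SLC1A3 and GDF10, both of Bergmann glia, were related at r = 0.63 and rho = 0.54 (adjusted permutation p = 0.00292), and at 0.42 over the 19 animals, where the relation did not pass (adjusted permutation p = 0.145). Leaving out the farthest 2 animals gave 0.44. GFAP with TNC (r = 0.37), SLC6A9 with SLC6A11 (r = 0.39), SLC38A1 with SLC38A3 (r = 0.02) and ALDH1L1 with SOX9 (r = -0.11) did not pass over the 22 animals; with group means removed GFAP with TNC did (r = 0.52, adjusted permutation p = 0.0188). SLC1A2 with SLC1A3 also passed over the 22 animals (r = 0.74, rho = 0.66, adjusted permutation p = 0.00055). There the animals fall into separate clusters in SLC1A2, so that value rests on the 3 libraries. Over the 19 animals r was 0.45 and the relation did not pass (adjusted permutation p = 0.14).

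Over the same 19 animals SLC1A2 was compared with each of the other 27 genes, a comparison added after its low values were seen. It was related to SLC38A1 (r = 0.83, rho = 0.86, adjusted permutation p = 0.00108) and to SLC4A4 (r = 0.67, rho = 0.74, adjusted permutation p = 0.0232), and to 2 of the 27 in all. Without the 2 animals farthest from the SLC1A2 median, r was 0.71 and 0.73. Within SHAM the relation to SLC38A1 was r = 0.95 (adjusted permutation p = 0.00108) and that to SLC4A4 0.48. Within the 8 BDL animals left they were 0.70 and 0.90, with adjusted exact permutation p values of 0.232 and 0.0954. The share of all genes related to SLC1A2 was not computed, so the count of 2 shows nothing particular to the 27. Among the genes most like SLC1A2 over all animals, MAP1B was at r = 0.90, AFF4 at 0.88 and MAP2 at 0.83 over these 19. None of these 3 is among the 27.

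**Figure D4:**
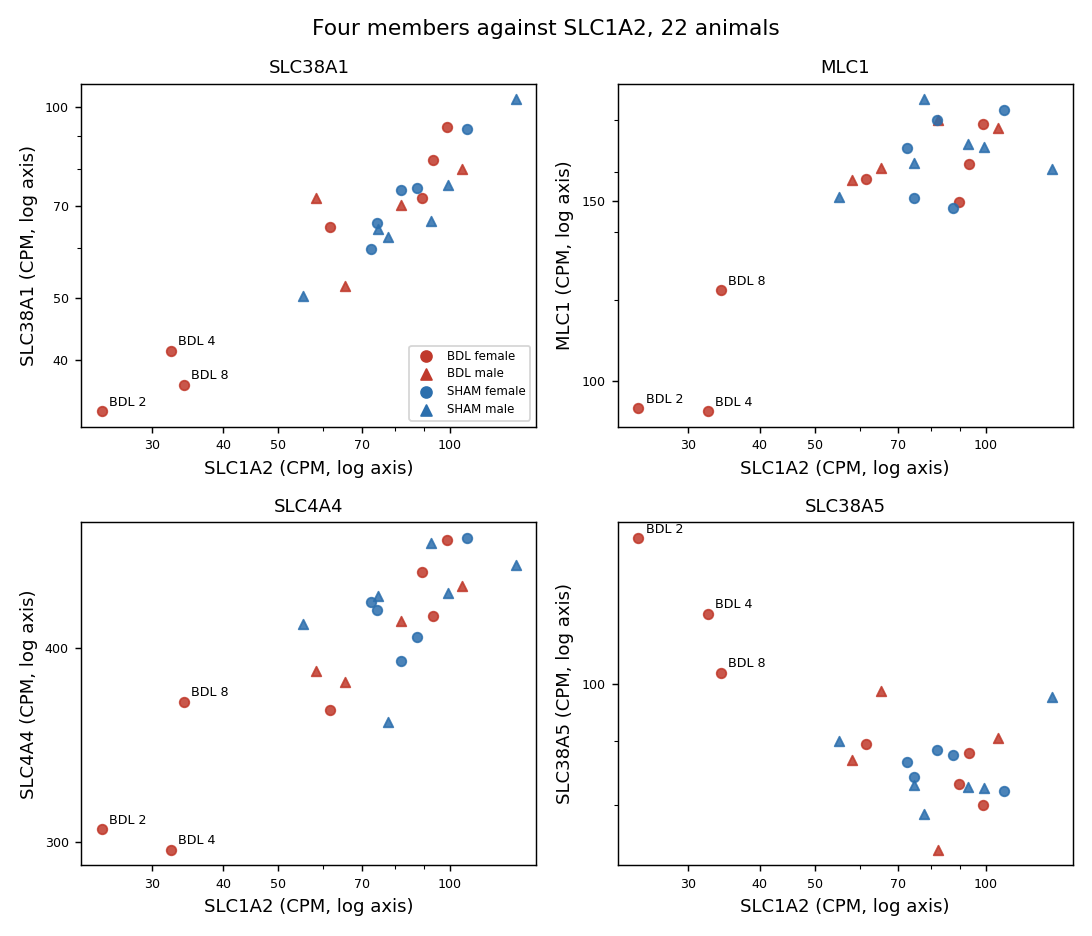
SLC38A1, MLC1, SLC4A4 and SLC38A5 (y axes, CPM, log scale) against SLC1A2 (x axes, CPM, log scale) in 22 animals, with BDL replicates 2, 4 and 8 named. These 3 animals form a cluster at 24.5 to 34.2 CPM of SLC1A2, away from the other 19 at 55.2 to 131 CPM, and SLC38A1 follows SLC1A2 among the other 19 as well.

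Set side by side over the 19 animals, the genes that followed myelin and those that followed SLC1A2 were largely different. GFAP was at r = 0.87 with myelin and -0.12 with SLC1A2, and HEPACAM at 0.85 and 0.10. SLC38A1 was at -0.04 with myelin and 0.83 with SLC1A2, and SLC4A4 at -0.31 and 0.67.

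**Figure D5:**
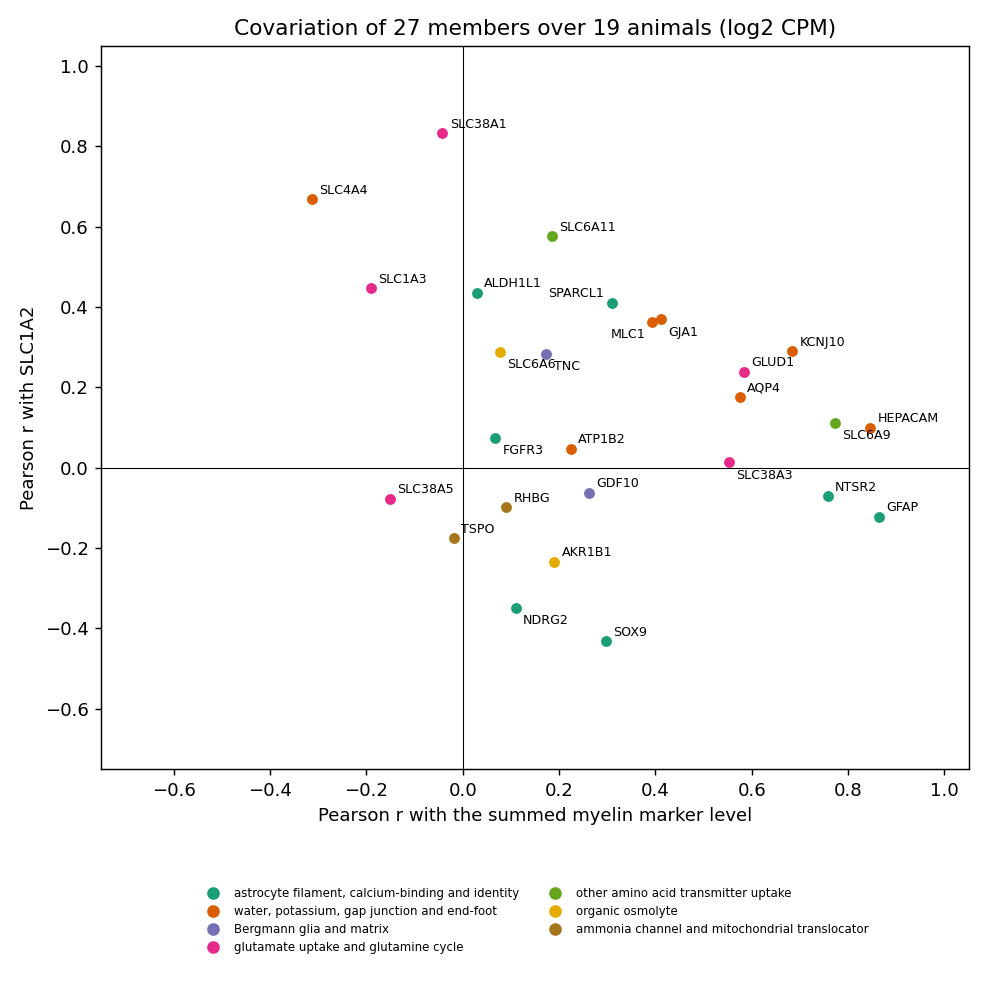
Pearson r of log2 CPM with the summed myelin marker level (x axis) and with SLC1A2 (y axis) for 27 genes over 19 animals, without BDL replicates 2, 4 and 8; colours give the role. GFAP (0.87, -0.12) and SLC38A1 (-0.04, 0.83) lie at opposite corners of the cloud.

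Sex made no difference that passed for any of the 28 genes, while 9 of all genes passed (0.06%). At an unadjusted p under 0.05 there were 0 of the 28, beside 5.95% of all genes. Without BDL replicates 2, 4 and 8, all from females, there were 2 of the 28, and 0 passed. The share of all genes was not computed for that fit. Over the 22 animals the smallest p values belonged to TNC, with a log2 difference of females minus males of 0.18 ± 0.10, MLC1 at -0.15 ± 0.10 and SLC6A6 at 0.11 ± 0.07. For TNC the highest group mean was that of SHAM females, at 116 ± 21.8 CPM (SD, n = 5), beside 97.4 ± 15.2 in SHAM males (n = 6), 95.5 ± 17.0 in BDL females (n = 7) and 88.5 ± 16.05 in BDL males (n = 4).

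The treatment difference was also compared between the sexes. The interaction passed for 0 of the 28 genes, beside 0% of all genes, and at an unadjusted p under 0.05 for 0 of the 28, beside 4.6% of all genes. The smallest p was that of SLC6A9, whose BDL minus SHAM difference was lower by 0.33 ± 0.16 on the log2 scale in females than in males (unadjusted p = 0.0522). Within females 2 genes were at an unadjusted p under 0.05, beside 5.83% of all genes: KCNJ10, at -0.28 ± 0.12 (p = 0.0313), and MLC1, at -0.28 ± 0.13 (p = 0.0358), both with an adjusted p of 0.795. With each animal left out in turn this count ran from 0 to 5. Without the 3 female libraries that stood apart they were at -0.12 and -0.03, and 0 of the 28 had an unadjusted p under 0.05, beside 2.28% of all genes. Within males 0 of the 28 had one, beside 4.08% of all genes, and KCNJ10 was at -0.03 ± 0.13.

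The fitted association with body weight was mostly positive. Per SD of body weight, with sex and treatment in the model, the coefficient was positive for 24 of the 28 genes, beside 50.3% of all genes, and 0 passed, beside 0%. At an unadjusted p under 0.05 there were 4 of the 28 (14.3%), beside 7.39% of all genes. They were SLC1A3 at 0.10 ± 0.03 (unadjusted p = 0.00507, adjusted p = 0.494), MLC1 at 0.14 ± 0.05 (0.00694), SPARCL1 at 0.10 ± 0.04 (0.0159) and SLC4A4 at 0.08 ± 0.04 (0.0463). The count was 7 with DESeq2, and with each animal left out in turn it ran from 1, without BDL replicate 4, to 7, without BDL replicate 8 or SHAM replicate 4. Without the 3 libraries, whose animals weighed 1820, 1620 and 2360, 0 of the 28 had an unadjusted p under 0.05, beside 6.06% of all genes. The coefficient was then positive for 20 of the 28. The share of all genes with a positive coefficient was not computed for that fit.

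Other genes of the same pathways were drawn from lists made by role, and 0 in any of them passed, with or without the 3 libraries. Of 18 further genes of the glutamate and glutamine cycle, 14 were fitted lower and 4 higher, and 12 and 6 without the 3 libraries. SLC1A4, a neutral amino acid carrier, was at -0.24 ± 0.13. Of 13 further genes of ammonia and nitrogen handling, 6 were lower and 7 higher, and 7 and 6 without the 3 libraries. OAT, ornithine aminotransferase, had 142 ± 7.81 CPM in BDL and 133 ± 10.4 in SHAM (SD, n = 11 each), a log2 fold change of 0.12 ± 0.04 (unadjusted p = 0.0113), and ASNS, asparagine synthetase, was at -0.19 ± 0.09 (unadjusted p = 0.0441). With the 3 libraries left out, SLC1A4 was at -0.26, OAT at 0.11 (unadjusted p = 0.0291) and ASNS at -0.22 (unadjusted p = 0.0281). Of the 13 ammonia and nitrogen genes, 4 then had an unadjusted p under 0.05, beside 3.45% of all genes. Besides OAT and ASNS they were OTC at 0.51 (unadjusted p = 0.0128) and ASS1 at -0.33 (unadjusted p = 0.0473).

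Of 19 genes of osmolyte and volume control, 12 were lower and 7 higher (10 and 9 without the 3 libraries). IMPA1, an enzyme of inositol synthesis, was at -0.11 ± 0.05 (unadjusted p = 0.0367) and CLCN2 at 0.13 ± 0.08 (unadjusted p = 0.106). Of 8 genes of the end-foot scaffold, 5 were lower and 3 higher (2 and 6 without the 3 libraries). KCNJ16, the partner subunit of KCNJ10, was at -0.17 ± 0.08 (unadjusted p = 0.0386) and AGRN at 0.17 ± 0.08 (unadjusted p = 0.0563). Without the 3 libraries IMPA1 was at -0.10 (unadjusted p = 0.0681) and CLCN2 at 0.16 (unadjusted p = 0.0544). KCNJ16 was then at -0.11 (unadjusted p = 0.162) and AGRN at 0.13 (unadjusted p = 0.145). Of 13 other Bergmann glia genes 8 were lower and 5 higher, and 8 and 5 without the 3 libraries. DAO, the D-amino acid oxidase that is abundant in cerebellar astrocytes, had 116 ± 17.0 CPM in BDL and 135 ± 16.2 in SHAM, a log2 fold change of -0.22 ± 0.08 (unadjusted p = 0.0106, adjusted p = 0.881), and -0.20 without the 3 libraries (unadjusted p = 0.01004).

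Of 30 other astrocyte identity genes, 18 were higher and 12 lower, and 15 and 15 without the 3 libraries. SLC7A10, a small neutral amino acid exchanger of astrocytes, was at -0.21 ± 0.09 (unadjusted p = 0.0281), and FABP7, a fatty acid binding protein of radial and Bergmann glia, at 0.12 ± 0.06. Of 19 genes of reactive astrocytes, 13 were higher and 6 lower, with a median log2 fold change of 0.03, and 11 and 8 without the 3 libraries, with a median of 0.00185. MAOB, the monoamine oxidase of astrocytes, was at 0.15 ± 0.07 (unadjusted p = 0.0438), and SERPING1, a complement inhibitor, at 0.15 ± 0.09. Over the 19 animals SLC7A10 was at -0.28 (unadjusted p = 0.00701), FABP7 at 0.14 (unadjusted p = 0.039), MAOB at 0.12 (unadjusted p = 0.119) and SERPING1 at 0.07 (unadjusted p = 0.405). Each of these named further genes had an adjusted p of 0.999843 over the 19 animals. With all 22 animals it was 0.881 for each apart from OTC and ASS1, which are given over the 19 only.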

How the data were processed

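Total RNA of 22 cerebella, extracted with a lipid tissue kit, was sequenced as 150 bp read pairs on a NovaSeq, per the labels' protocols. The authors deposited raw read counts for each Ensembl gene. Trim Galore, HISAT2, HTSeq, DESeq2 and the build Sscrofa11.1 are named in the submitters' processing notes. The sources used here do not give versions or the strand setting; if strand was ignored, overlapping antisense genes cannot be told apart. Lines of no gene held 29.9% to 34.6% of reads and were left out. Symbols were matched for 15029 of 31907 identifiers.

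Genes were kept by filterByExpr (minimum count 10, minimum total 15), scaled by TMM and tested in edgeR 4.0.16 (R 4.3.3) on sex and treatment, with Benjamini-Hochberg adjustment over 14994 genes and a threshold of 0.05. Interaction and within-sex values came from a model of 4 groups. CPM use TMM library sizes; log2 CPM carry a prior count of 2. Relations used 100000 permutations, whose smallest p is 1e-05, and all orders for 8 animals. Alternatives were DESeq2 1.42.0, limma 3.58.1 with voom, other scaling, filters, covariates and each animal left out in turn. The scripts were tested on simulated data. The labels name each sample as an animal, so p-values measure the spread between animals; replicate numbers follow deposition order and pair nothing. Genes and lists were chosen with earlier results of these data known. Named genes were the 5 of smallest treatment p plus GFAP, AQP4, SLC1A2, SLC1A3 and TSPO, up to 3 for each other contrast, and up to 2 for each further list; the remaining genes are given by fold change.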

Additional observations from a re-analysis of the deposited data

Results flagged for a closer look

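Within the 4 groups of treatment and sex, 112 sets of values (28 genes in 4 groups) were searched for an animal far from the others, and 4 were found. Chance flags about 1 in 20 such sets, which is 5.6 of the 112, so the number found is not above that. SOX9 was at 39.1 CPM in SHAM replicate 11, beside 32.98 to 34.2 CPM in the other SHAM females. SPARCL1 was at 806 CPM in BDL replicate 6, beside 715 to 728 CPM in the other BDL males. SLC6A11 was at 36.6 CPM in SHAM replicate 4, beside 54.0 to 63.5 CPM in the other SHAM males. RHBG was at 2.87 CPM in SHAM replicate 3, beside 1.89 to 2.17 CPM in the other SHAM males, at 27 to 55 reads per library.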

How the results depend on the processing

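Under every alternative run, 0 of the 28 genes passed for treatment, and likewise for sex, interaction and weight under those run for them. DESeq2 called 1 of all genes for treatment, against 0 with edgeR (769 and 744 at an unadjusted p under 0.05). BDL replicates 2, 4 and 8 were chosen for leaving out after the data were seen. Without them the log2 fold change turned sign for AQP4 (0.010), NDRG2 (0.014), GDF10 (0.0069), SLC38A1 (0.028), ALDH1L1 (0.031), GLUD1 (0.040), SLC6A11 (0.069) and TSPO (-0.079). With the myelin sum added as well, the turned values were GFAP -0.019, TSPO -0.088, GLUD1 0.0028, NDRG2 0.0086, ALDH1L1 0.032, SLC38A1 0.057 and SLC6A11 0.060, and with the myelin sum alone GJA1 -0.014. NDRG2, near 0 throughout, was at 0.000683 with DESeq2, 0.000679 with RLE scaling in edgeR, 0.0065 with voom, 0.0028 without a filter, 0.0057 with weight and 0.018 with the sample number as a covariate, where NTSR2 was at 0.019.

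With each animal left out in turn, 18 to 23 genes were lower, 0 to 4 had an unadjusted p under 0.05, and the sign changed for NDRG2 (-0.033 to 0.023), NTSR2 (-0.17 to 0.072), GJA1 (-0.015 to 0.054), GLUD1 (-0.030 to 0.024) and SLC6A9 (-0.10 to 0.0095). Of the pairs, 6 passed over 22 animals, 7 with group means removed, 2 without the 3 libraries and 1 within SHAM. SLC38A1 with SLC38A3 turned to -0.064 with group means removed, -0.16 within BDL and -0.067 without the farthest 2 animals, and ALDH1L1 with SOX9 to 0.23. Of the relations to myelin, 11 passed over 22 animals, 15 with group means removed, 7 within BDL and 5 within SHAM. SLC1A3 was at -0.12 and SLC4A4 at -0.51 within SHAM, and at -0.030 and -0.087 without the farthest 2; without the 3 libraries they were at -0.19 and -0.31. Of the relations to SLC1A2, 2 passed over 19 animals, 0 within BDL and 1 within SHAM. The cause of these changes was not tested. Low counts limit RHBG, TSPO and ALDH1L1. No paired analysis was possible because the titles number each animal separately, and the replicate numbers used here follow deposition order.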

Other observations

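The genes most like SLC1A2 over the 22 animals, by Pearson r of log2 CPM among all tested genes with a symbol, were no glial markers. They were AFF4 (r = 0.97), a transcription elongation factor, PPM1L (0.96), a phosphatase, MARCHF6 (0.96), a ubiquitin ligase, AKAP11 (0.96), an anchoring protein, and the neuronal microtubule proteins MAP1B (0.96) and MAP2 (0.96). Over the 19 animals without BDL replicates 2, 4 and 8 these stood at 0.88, 0.87, 0.85, 0.86, 0.90 and 0.83. Ranked over the 22 animals, the 100 genes most like SLC1A2 had a median RefSeq span of 115 kb on the genome. The 100 least like it had 9.30 kb, and all 11571 with a span 31.9 kb. That ranking includes BDL replicates 2, 4 and 8, which were low in SLC1A2 and in long genes. Spans were not computed for a ranking over the 19 animals. SLC1A2 itself spans chr2:25603892-25771840. These values are a description, and the part of transcript or gene length in the SLC1A2 levels was not tested.

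GFAP had other neighbours. Those most like it were APOD (r = 0.94), a lipid carrier of oligodendrocytes and astrocytes, MBP (0.91), the myelin basic protein, and STK39 (0.90), a kinase that regulates ion transport, which stood at 0.92, 0.88 and 0.87 over the 19 animals. Ranked over the 22 animals, the 100 genes most like GFAP had a median span of 27.97 kb, and the 100 least like it 39.8 kb.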
